A study of Mus musculus with 12 samples.

Results

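The genes described here encode potassium channels and the auxiliary subunits named after them. They are the protein-coding mouse genes whose symbol begins with Kcn followed by a subfamily letter and a number, whose mean over the 6 libraries of a table reached 1 FPKM, a fragment count scaled to transcript length and to the fragments mapped in the library. There were 60 such genes among the 13178 tested in the AAV experiment and 71 among the 13804 tested in the ribose experiment. In all, 72 genes met the rule in either table, 59 in both, 12 in the ribose table alone and 1, Kcne1l, in the AAV table alone. Another 19 genes with Kcn symbols, Kcne1l among them, stood below that mean in the ribose table and do not count there, from Kcnk6 at 0.0175 FPKM to Kcnj1 at 0.949 FPKM. The lowest that count are Kcna5 at 1.08 FPKM in the ribose table and Kcnj16 at 1.02 FPKM in the AAV table. Kcnd2, the Kv4.2 pore, at 0.648 FPKM and Kcnq1 at 0.327 FPKM were among those below the minimum in the ribose table.

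RNA was sequenced from dorsal root ganglion neurons of lumbar levels L4 to L6, which project through the sciatic nerve, in C57BL/6J mice aged 8 weeks. Every animal had a spinal cord injury, and tissue was taken 72 h (3 days) later, so no uninjured group was available for comparison. In the AAV experiment, 3 AAV-GFP and 3 AAV-TKT libraries came from mice that had received an adeno-associated virus through the sciatic nerve, left for 4 weeks, carrying green fluorescent protein or Tkt. Tkt encodes transketolase, an enzyme of the non-oxidative pentose phosphate pathway. The promoter of the viruses is not given in the sources used here. In the ribose experiment, 3 Ribose libraries from mice given 10% ribose, a pentose sugar, were set against 3 Vehicle libraries.

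Potassium channels let potassium leave the cell and so set the resting potential, repolarize the action potential and limit repeated firing. In sensory neurons, voltage-gated Kv1 to Kv4 channels shape the spike, Kv7 channels carry the M-current that restrains excitability, 2-pore channels provide background conductance, and calcium-activated and sodium-activated channels follow activity. Satellite glia around the neurons carry inward rectifiers, of which Kir4.1 (Kcnj10) is the best known and buffers extracellular potassium.

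Tkt stood at 98.1 to 106.5 FPKM in the AAV-GFP libraries and at 222.6 to 261.9 FPKM in the AAV-TKT libraries. All 7 pan-neuronal markers were measured in both tables, at a summed 4484 to 5897 FPKM in the AAV experiment and 5160 to 5845 FPKM in the ribose experiment. Satellite glial markers were present in every library too, at a summed 692.4 to 1327 FPKM and 296.4 to 1637 FPKM, so the libraries held glial RNA beside that of neurons. In bulk RNA, fewer cells of a type and less RNA per cell cannot be told apart. Read depth is not stated. The spacing of low values gave relative depths of 0.998 to 1.34 for the Vehicle and 0.760 to 0.909 for the Ribose libraries, but in the AAV experiment no spacing could be resolved. Separate animals per replicate are not stated, and p-values then measure only the spread between these samples. The scaling of the 2 tables is not stated, and only the order of levels, not the levels, is compared between them.

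The level of a potassium channel gene differed far more between genes than between groups. Kcnab2, the Kv beta-2 subunit that binds Kv1 channels (chromosome 4, 152390742 to 152477871, GRCm38), stood above every other member. It was at 466.3, 447.0 and 412.3 FPKM in the AAV-GFP libraries and 494.8, 459.6 and 539.5 FPKM in the Vehicle libraries. In both tables no library of another member overlapped it. Next in the AAV-GFP libraries were Kcna1, the Kv1.1 pore, at 126.7 ± 8.18 FPKM (SD, n = 3) and Kcnip3, a Kv4-binding calcium sensor, at 124.9 ± 9.42 FPKM (SD, n = 3). These overlapped each other and lay above Kcna2, the Kv1.2 pore, at 85.0 ± 6.24 FPKM (SD, n = 3).

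Among those below them in the AAV-GFP libraries were Kcnip4 (76.2 FPKM), Kcnab1 (74.8 FPKM), the Kv4.1 gene Kcnd1 (68.6 FPKM), the Kv2.2 gene Kcnb2 (55.6 FPKM) and Kcnip2 (50.9 FPKM). Most neighbours in this order did not differ beyond their spread: 50 of 59 neighbouring pairs overlapped among the AAV-GFP libraries and 69 of 70 among the Vehicle libraries. The order itself was close to the same in both control groups, with a Spearman correlation of 0.983 over the 59 shared genes, given as a description since FPKM divides by the same gene lengths in both.

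By role, the 21 voltage-gated pore genes held 41.5% ± 0.22 (SD, n = 3) of the summed FPKM of the members in the AAV-GFP libraries and the 7 auxiliary genes 40.5% ± 0.839 (SD, n = 3). The modifier subunits (Kcng, Kcns, Kcnv), which form no channel alone and alter Kv2, held 5.57%. The calcium-activated group held 3.87%, 2-pore genes 3.63%, sodium-activated genes 2.51% and inward rectifiers 2.47%. Calcium-activated here means the subfamilies Kcnma, Kcnmb, Kcnn and Kcnu, grouped by symbol and not by the gating of each gene. Among the pore genes, the highest of their subfamilies in the AAV-GFP libraries included Kcna1, Kcnd1, the herg-related Kcnh7 at 45.6 FPKM and the Kv3.4 gene Kcnc4 at 33.3 FPKM. The highest of the others were the modifier Kcns3 at 28.7 FPKM, the sodium-activated Kcnt1 at 44.5 FPKM, the 2-pore Kcnk1 (TWIK-1) at 23.0 FPKM, the inward rectifier Kcnj12 (Kir2.2) at 19.4 FPKM, the BK channel gene Kcnma1 at 16.6 FPKM and the SK channel gene Kcnn1 at 16.4 FPKM.

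The 12 genes that met the minimum in the ribose table alone were low. They were Kcna3, Kcna5, Kcnf1, Kcnh3, Kcnh8, Kcnj6, Kcnj8, Kcnj9, Kcnj14, Kcnk5, Kcnn3 and Kcns2, with Vehicle means from 0.532 FPKM (Kcnj8) to 1.97 FPKM (Kcnj14). Kcnj8 and Kcna5 (0.994 FPKM) had Vehicle means under 1 FPKM and met the minimum only through the Ribose libraries. Kcnk5, with a Ribose mean of 0.976 FPKM, met it only through the Vehicle libraries. The plot of levels shows each library of both experiments.

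**Figure D1:**
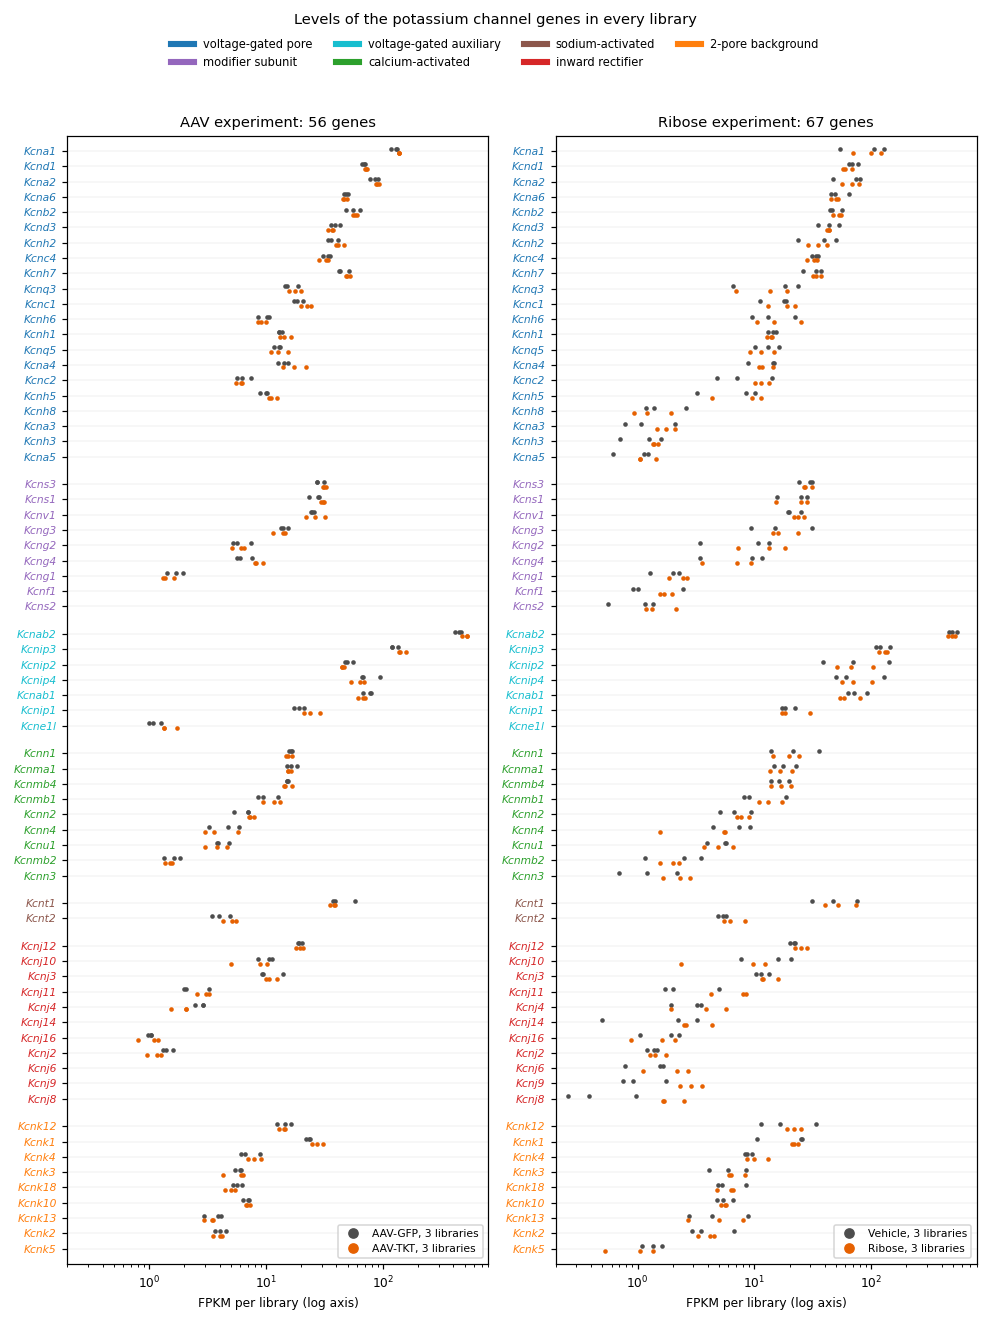
FPKM of potassium channel genes in every library on a log axis, 56 genes in the AAV experiment and 67 in the ribose experiment, ordered by role and level; each point is 1 library (dark, control; orange, treated). Kcnab2 sits alone at the right in both panels, and the points of most genes lie closer together in the AAV experiment than in the ribose experiment.

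The first comparison asks how the potassium channel genes stood when transketolase was delivered to the neurons. In limma, with Benjamini-Hochberg adjustment over all 13178 genes, 0 of the 60 genes passed at 0.05, where 0.0152% of all genes did, and the lowest adjusted p was 0.402. At an unadjusted p under 0.05 there were 8 of 60 (13.3%), beside 10.6% of all genes. That count was 2 without AAV-TKT replicate 3, 3 without AAV-TKT replicate 1 and 4 without AAV-GFP replicate 3, beside 8.76%, 9.56% and 6.73% of all genes. The fitted changes, on the log2(FPKM + 1) scale, ran from -0.38 (Kcnj4) to 0.38 (Kcng4), with 33 above 0 and 27 below and a median of 0.03 beside 0.01 over all genes. With equal totals per library the direction turned, to 28 above 0, 32 below and a median of -0.02 beside -0.03 over all genes. The median half-width of the 95% intervals was 0.24, and for 60 of 60 genes the whole interval lay inside a change of 1 log2 unit in either direction.

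In 12 of the 60 genes (20.0%, beside 11.3% of all genes) the lowest AAV-TKT library exceeded the highest AAV-GFP library, among them Kcna1, Kcnab2, Kcne1l, Kcng4, Kcnh5, Kcnip1, Kcnip3, Kcnk1, Kcnn2 and Kcns1. In 3 (5.0%, beside 7.2%) all AAV-TKT libraries lay below: Kcnip2, Kcnj2 and Kcnj4. Summed over the 60 genes, FPKM was 1860 to 2001 in the AAV-GFP and 2036 to 2085 in the AAV-TKT libraries, but as a share of all FPKM without the non-coding RNA Rn7s2 it overlapped, at 0.505% to 0.518% and 0.514% to 0.537%. With equal totals per library, again without Rn7s2, the counts were 7 above and 6 below, beside 6.4% and 11.2% of all genes. With quantile normalization they were 8 above and 5 below, beside 11.1% and 6.31%. Markers differed between the same libraries. Of 7 pan-neuronal markers 3 lay higher and 1 lower in every AAV-TKT library (summed 4484 to 5073 against 5155 to 5897 FPKM). For large-diameter neurons 4 of 7 markers lay higher and 1 lower (summed 877.5 to 975.3 against 1079 to 1239 FPKM). Beside these counts, 11.3% of all genes lay higher and 7.2% lower. As scores, the mean of log2(FPKM + 1) centred over the 6 libraries, the groups of both marker sets overlapped. Pan-neuronal scores were -0.139 to 0.026 against 0.004 to 0.148, and large-diameter scores -0.201 to -0.011 against -0.024 to 0.255. Non-peptidergic scores did not overlap, at -0.035 to 0.386 against -0.242 to -0.094. Of the 7 non-peptidergic nociceptor markers measured 3 lay lower and 0 higher (summed 217.9 to 266.6 against 198.5 to 217.8 FPKM), and 3 of 6 Schwann cell, 4 of 6 macrophage, 8 of 8 neutrophil and 5 of 5 red cell markers lay lower. Their part in the potassium channel values was not tested.

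Of the voltage-gated pore genes, 16 of 21 had a fitted change above 0, beside 53.7% of all genes, with a median of 0.10, and 0 passed the test. With equal totals 14 of 21 were above 0, beside 40.9% of all genes, with a median of 0.05. With quantile normalization 14 were, beside 55%, with a median of 0.06. Kcnc1, the Kv3.1 channel of fast-spiking neurons, was at 18.5, 20.8 and 17.4 FPKM in the AAV-GFP libraries and at 24.5, 19.9 and 22.4 FPKM in the AAV-TKT libraries. The groups overlapped, and the difference was 0.22 (95% interval -0.01 to 0.46, adjusted p = 0.479). Kcnc2 and Kcnc4 lay on the other side of 0, at -0.10 and -0.08.

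Kcnh5, an ether-a-go-go channel (Kv10.2), was at 10.2, 10.0 and 8.89 FPKM with AAV-GFP and 11.1, 10.7 and 12.4 FPKM with AAV-TKT, a difference of 0.21 (95% interval 0.00 to 0.42, adjusted p = 0.472). Kcna1 was at 132.1, 130.8 and 117.3 FPKM with AAV-GFP and at 138.6, 137.7 and 138.1 FPKM with AAV-TKT. Its AAV-TKT libraries were nearly equal, and the difference was 0.13 (95% interval -0.04 to 0.29, adjusted p = 0.540). The other Kv1 genes were Kcna4 at 0.29, Kcna2 at 0.08 and Kcna6 at -0.03, all with intervals that included 0.

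The M-current family genes Kcnq3 and Kcnq5 differed by 0.14 and 0.04, with 95% intervals of -0.15 to 0.43 and -0.24 to 0.32. Kcnb2 (Kv2.2) differed by 0.06, with a 95% interval of -0.18 to 0.30. For the Kv4 pores, the values were 0.06 for Kcnd1 and -0.12 for Kcnd3, the latter -0.06 without AAV-GFP replicate 2.

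The modifier subunit Kcng4 (Kv6.4; chromosome 8, 119623854 to 119635680) had the lowest p of all members. It was at 7.56, 5.60 and 6.02 FPKM in the AAV-GFP libraries and at 9.50, 8.15 and 8.01 FPKM in the AAV-TKT libraries. Every AAV-TKT library was the higher, by 0.38 (95% interval 0.09 to 0.66), and the adjusted p was 0.402. Kcns1, a Kv2 modifier of large sensory neurons, was at 28.3, 27.9 and 23.5 FPKM against 30.9, 31.1 and 29.5 FPKM, a difference of 0.20 (adjusted p = 0.472) that was 0.12 without AAV-GFP replicate 3. The other modifiers were split, with Kcns3 at 0.14 and Kcnv1 at 0.09 above 0, and Kcng1, Kcng2 and Kcng3 at -0.13, -0.04 and -0.10.

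Among the auxiliary genes the members of 1 family lay on opposite sides. Kcnip1 and Kcnip3, which like all KChIPs bind Kv4 pores, were higher in every AAV-TKT library, by 0.34 and 0.22. Kcnip1 was at 19.0, 20.9 and 17.5 FPKM against 21.1, 29.2 and 24.0 FPKM (adjusted p = 0.425), and Kcnip3 at 135.7, 120.1 and 118.8 FPKM against 138.6, 159.3 and 140.3 FPKM (adjusted p = 0.446). Kcnip2 was lower in every AAV-TKT library, at 47.5, 55.8 and 49.3 FPKM against 45.0, 44.5 and 46.3 FPKM, a difference of -0.16 (adjusted p = 0.498). Kcnip4, at -0.28, overlapped between the groups. These values leaned on single libraries: Kcnip1 was at 0.22 without AAV-TKT replicate 2, Kcnip2 at -0.09 without AAV-GFP replicate 2, and Kcnip4 at -0.12 without AAV-GFP replicate 2 and -0.18 without AAV-TKT replicate 1.

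The beta subunits were likewise apart in sign. Kcnab2 was at 521.2, 521.7 and 478.7 FPKM in the AAV-TKT libraries, above all AAV-GFP libraries, with a difference of 0.20 (95% interval 0.00 to 0.40, adjusted p = 0.470). Kcnab1 was at -0.18 (95% interval -0.38 to 0.02, adjusted p = 0.498). In the annotation, exons of Kcnab2 overlap a transcript on the same strand, Gm16334, and those of Kcnk4 overlap Catsperz, whose reads may be shared with them. Kcnk1 and, in the ribose experiment, Kcnj9 overlap opposite-strand transcripts, and without a stated strand setting the reads cannot be told apart. Kcne1l was close to the minimum level, at 1.11 ± 0.136 FPKM with AAV-GFP and 1.47 ± 0.216 FPKM with AAV-TKT (SD, n = 3).

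Of the 8 calcium-activated genes 6 were below 0, with a median of -0.06, beside 6095 of all 13178 genes below 0. The BK pore Kcnma1 differed by -0.07 (95% interval -0.29 to 0.14). The SK genes Kcnn1 and Kcnn2 were at -0.06 and 0.20, and Kcnn2 was higher in every AAV-TKT library at 7.17, 7.35 and 7.92 FPKM against 7.02, 5.28 and 7.00 FPKM. The sodium-activated gene Kcnt1 (Slack) was at 57.3 FPKM in AAV-GFP replicate 3 and between 35.3 and 39.2 FPKM in the other 5 libraries, with a fitted difference of -0.21 (adjusted p = 0.625).

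The inward rectifiers gave the lowest fitted change. Kcnj4 (Kir2.3; chromosome 15, 79483714 to 79505241) was low in all libraries, at 2.90, 2.90 and 2.48 FPKM with AAV-GFP and 2.07, 2.07 and 1.53 FPKM with AAV-TKT. Every AAV-TKT library was the lower, by -0.38 (95% interval -0.68 to -0.09), and the adjusted p was 0.412. Kcnj2 (Kir2.1) was lower in every AAV-TKT library as well, at 1.31, 1.61 and 1.39 FPKM against 1.16, 0.96 and 1.25 FPKM, while Kcnj12, of the same Kir2 family, was at 0.00 with an interval of -0.18 to 0.18.

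Of the 8 background 2-pore genes, Kcnk1 (chromosome 8, 125995170 to 126030685) was at 23.3, 23.6 and 22.1 FPKM with AAV-GFP and 30.8, 27.2 and 25.0 FPKM with AAV-TKT. The groups did not overlap, and the difference was 0.25 (95% interval 0.05 to 0.46, adjusted p = 0.416). The TREK and TRAAK genes Kcnk2, Kcnk10 and Kcnk4 were at -0.04, 0.02 and 0.14. Kcnk18 (TRESK), a channel of nociceptors, was at -0.16 (95% interval -0.40 to 0.08), and at -0.10 without AAV-TKT replicate 1 and -0.11 without AAV-GFP replicate 3. The small panels give the libraries of 13 genes whose groups did not overlap.

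**Figure D2:**
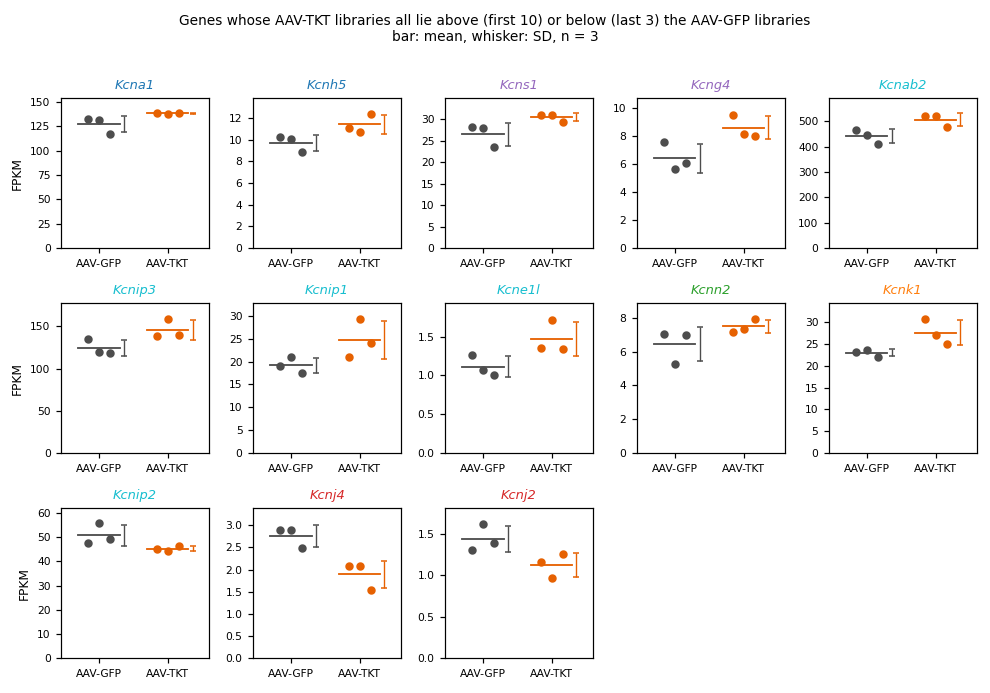
FPKM per library (axis from 0) of 13 genes whose AAV-TKT libraries all lie above (10 genes) or below (Kcnip2, Kcnj4, Kcnj2) the AAV-GFP libraries; bars are means, whiskers SD, n = 3. The gap between the groups is narrow in most panels, as for Kcna1 and Kcnn2, and none of these genes passed the adjusted threshold.

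The second comparison asks how the same genes stood after ribose. In limma over 13804 genes, 0 of the 71 potassium channel genes passed, where 0.00724% of all genes did, and the lowest adjusted p was 0.957. At an unadjusted p under 0.05 there were 3 of 71 (4.23%, beside 4.79% of all genes), namely Kcnj9, Kcnj11 and Kcnj8, which met the minimum level only through its Ribose libraries. That count was 0 without Vehicle replicate 3 and 5 without Vehicle replicate 2, beside 2.62% and 5.52% of all genes. Fitted changes ran from -0.90 (Kcnj10) to 1.05 (Kcnj11), with a median of 0.06 beside -0.02 over all genes. Of them 39 (54.9%, beside 44.8% of all genes) were above 0 and 32 below, with Kcns3 below by less than the rounding. Among the 52 members averaging 5 FPKM or more the median was 0.00.

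Replicates were further apart here than in the AAV experiment. The median coefficient of variation of the members was 33.2% in the Vehicle and 21.7% in the Ribose libraries, beside 9.6% in AAV-GFP and 9.13% in AAV-TKT. The median half-width of the 95% intervals was 0.66, and for 50 of 71 genes the interval lay inside a change of 1 log2 unit. For 3 genes (4.23%, beside 4.28% of all genes) every Ribose library lay above every Vehicle library, Kcnj8, Kcnj9 and Kcnj12, and for 0 genes (beside 5.35%) all lay below. Of these, Kcnj8 met the minimum level only through its Ribose libraries.

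Of the 11 inward rectifier genes 9 had fitted changes above 0, beside 44.8% of all genes, with a median of 0.26. Among them Kcnj6, Kcnj8, Kcnj9 and Kcnj14 were low genes that met the minimum in the ribose table alone. The median half-width of the 95% intervals of the 11 genes was 0.745. Kcnj8 and Kcnj11 encode Kir6.1 and Kir6.2, the pores of ATP-sensitive channels. Kcnj8 (chromosome 6, 142564837 to 142571614) was at 0.964, 0.381 and 0.253 FPKM in the Vehicle libraries and 1.65, 1.69 and 2.49 FPKM in the Ribose libraries. All Ribose libraries were the higher, by 0.96 (95% interval 0.24 to 1.68), with an adjusted p of 0.957. Its Vehicle mean of 0.532 FPKM lay under the minimum of 1 FPKM, and its Ribose mean was 1.94 FPKM. Kcnj8 was thus kept only through the Ribose group, which favours a higher Ribose value, so its place in these counts is no support. Kcnj11 (chromosome 7, 46093953 to 46100764) was at 1.72, 5.01 and 2.03 FPKM against 4.22, 7.96 and 8.46 FPKM, so that Vehicle replicate 2 overlapped the Ribose range. Its difference was 1.05 (95% interval 0.17 to 1.93, adjusted p = 0.9998). Abcc8, which encodes a sulfonylurea receptor that completes such channels, differed by 0.41 and overlapped between the groups.

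Kcnj9 encodes Kir3.3, a G-protein-gated subunit. It lies on the minus strand of chromosome 1 (172320501 to 172329318), 11892 bases from Kcnj10 on the plus strand. It was at 1.75, 0.743 and 0.918 FPKM in the Vehicle libraries and 3.59, 2.31 and 2.85 FPKM in the Ribose libraries, all higher, by 0.89 (95% interval 0.22 to 1.56, adjusted p = 0.957). Its partners Kcnj3 and Kcnj6 differed by 0.16 and 0.35 and overlapped. Kcnj12, the other gene without overlap, was at 20.28, 22.26 and 21.90 FPKM against 22.27, 24.86 and 28.42 FPKM, so the nearest libraries of the groups all but touched (0.21, adjusted p = 0.9998, and 0.13 without Ribose replicate 3).

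These 3 genes with the lowest p were all under 10 FPKM in every library, and the relative depths of the Vehicle libraries (0.998 to 1.34) lay above those of the Ribose libraries (0.760 to 0.909). Mural cells, in which Kcnj8 is a known marker, were represented by 6 markers of which 0 lay apart between the groups, at a summed 55.1 to 68.4 FPKM with Vehicle and 41.8 to 69.1 FPKM with Ribose. The part of depth and of mural cells in these values was not tested.

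Kcnj10 had the lowest fitted change. It was at 15.8, 7.62 and 20.4 FPKM in the Vehicle libraries and 12.4, 2.34 and 9.79 FPKM in the Ribose libraries. The groups overlapped, replicate 2 was the lowest library of both, and the difference was -0.90 (95% interval -2.21 to 0.42, adjusted p = 0.9998). Without Ribose replicate 2 it was -0.28. The summed satellite glial markers ran alongside, at 1242, 685.5 and 1637 FPKM with Vehicle and 1016, 296.4 and 876.5 FPKM with Ribose. The summed Schwann cell markers did not overlap between the groups, at 442.9 to 498.3 FPKM with Vehicle and 388.0 to 406.4 FPKM with Ribose, and 1 of the 7 lay lower in every Ribose library. In the AAV experiment Kcnj10 was at 11.3, 8.47 and 10.7 FPKM against 10.2, 5.06 and 8.92 FPKM, a difference of -0.34 that was -0.08 without AAV-TKT replicate 2. In that library the satellite glial markers summed to 692.4 FPKM, the lowest of the AAV experiment. The part of glial content in these Kcnj10 values was not tested. Kcnn4, the intermediate-conductance calcium-activated channel, was at 7.32, 4.45 and 9.21 FPKM with Vehicle and 5.58, 1.56 and 5.48 FPKM with Ribose, a difference of -0.70 that was -0.25 without Ribose replicate 2.

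**Figure D3:**
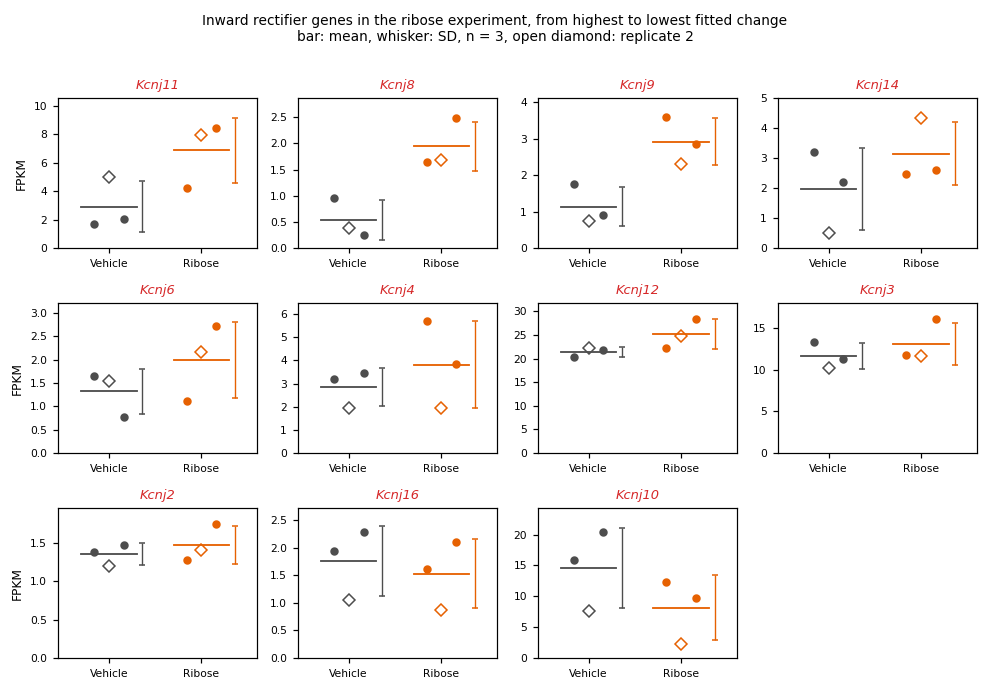
FPKM per library (axis from 0) of the 11 inward rectifier genes in the Vehicle and Ribose libraries, in order of fitted change; bars are means, whiskers SD, n = 3, and open diamonds are replicate 2. Kcnj8 and Kcnj9 show no overlap at under 4 FPKM, and Kcnj3, Kcnj4, Kcnj9, Kcnj10 and Kcnj16 are lowest in replicate 2 of both groups. Kcnj8 met the minimum level only through its Ribose libraries.

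In the other roles, the ribose values lay close to 0, spread widely or, as in the inward rectifiers, lay mostly above 0. Of the 9 modifier genes 6 were above 0, with a median of 0.17, and both sodium-activated genes were, with a median of 0.21. The calcium-activated genes had a median of -0.02 and the 2-pore genes 0.00. The 25 voltage-gated pore genes had a median of 0.00, with 12 above and 13 below, and the 6 auxiliary genes a median of -0.01. Several abundant genes had narrow intervals: Kcnab2 differed by -0.02 (95% interval -0.26 to 0.22), Kcnip3 by 0.03 (-0.27 to 0.34) and Kcnd1 by -0.18 (-0.45 to 0.10), which was -0.11 without Vehicle replicate 2. Kcnc2 (Kv3.2) stood at 0.49, with 7.09, 14.1 and 4.77 FPKM against 11.3, 13.4 and 10.1 FPKM, so the Ribose libraries lay inside the Vehicle range. Its difference was 0.18 without Vehicle replicate 3 and 0.87 without Vehicle replicate 2. Kcnq3 and Kcnq5 were at -0.21 and -0.15, with intervals of -1.38 to 0.96 and -0.69 to 0.39. The plot of fitted changes sets both experiments side by side.

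**Figure D4:**
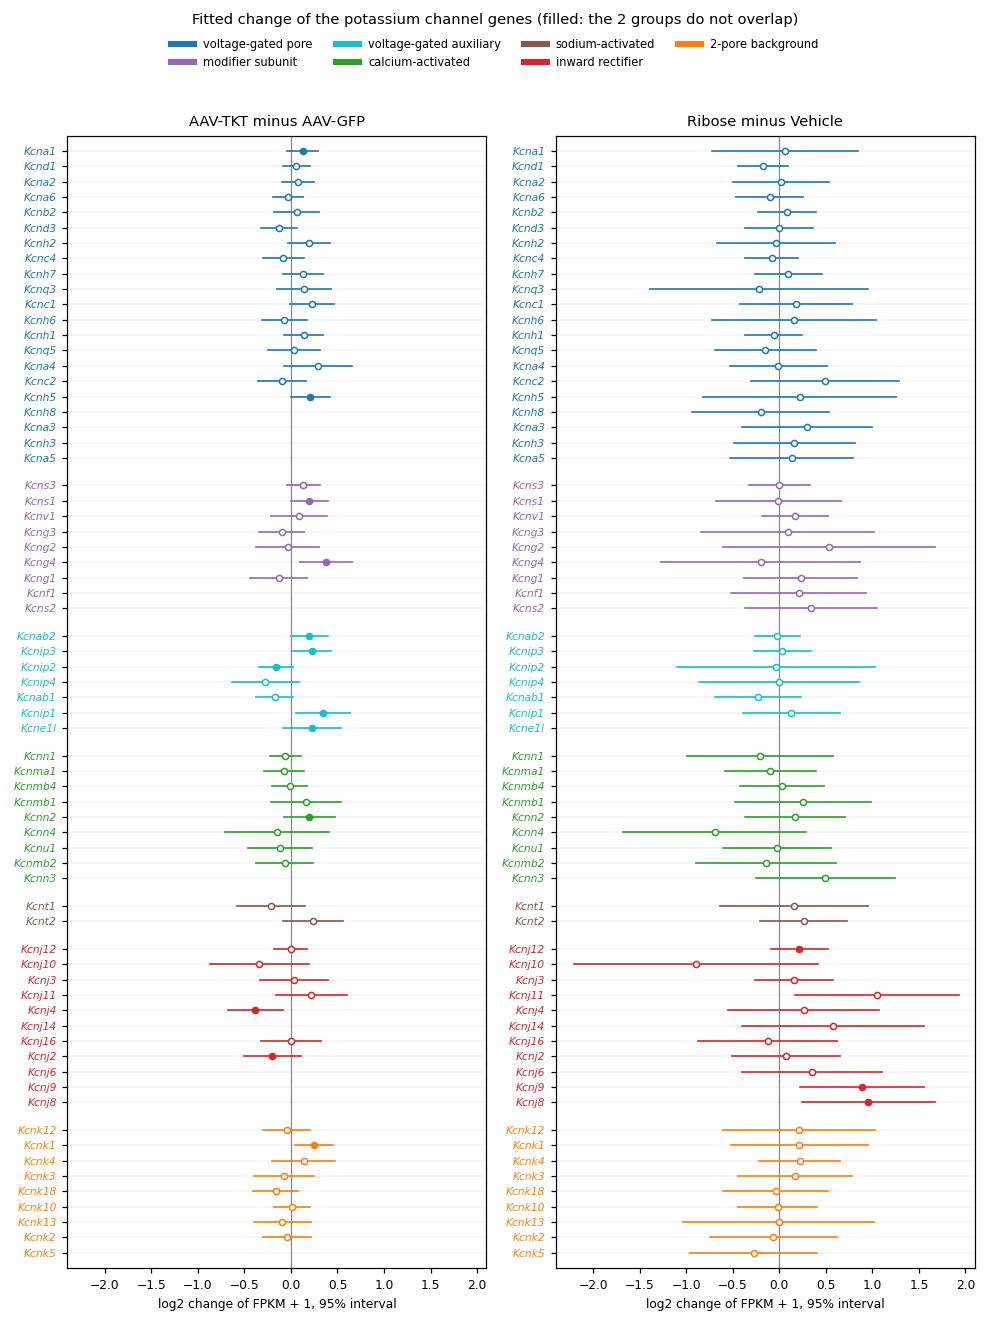
Fitted log2 change of FPKM + 1 with its 95% interval for 56 genes (AAV experiment) and 67 genes (ribose experiment), AAV-TKT minus AAV-GFP (left) and Ribose minus Vehicle (right), on 1 scale; filled points mark genes whose 2 groups do not overlap. Intervals are narrower on the left (median half-width over all members 0.24) than on the right (0.66), and most include 0.

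In the ribose experiment a pattern shared by many of these genes lay within the groups. Replicate 2 was the highest library of both the Vehicle and the Ribose group in 19 of 71 genes (26.8%, beside 21.4% of all genes), and the lowest of both in 23 (32.4%, beside 19.2%). The pattern was noticed after the values were seen and is given without a test. Same-numbered Vehicle and Ribose libraries are not stated to share an origin.

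Genes highest in replicate 2 included Kcnip2, at 69.2, 141.0 and 38.9 FPKM in the Vehicle and 67.5, 102.5 and 51.2 FPKM in the Ribose libraries. Kcnip4 ran the same way at 60.5, 129.3 and 49.8 FPKM and 69.3, 100.5 and 55.6 FPKM. Kcnk13 (THIK-1), at 4.32, 8.90 and 2.77 FPKM and 4.93, 7.95 and 2.70 FPKM, was 2.51 and 2.08 times the mean of the other libraries of its group, the only gene above 2 times in both groups. Others were Kcnt1 (1.95 and 1.59 times), Kcnh6 (Kv11.2; 1.96 and 2.00 times), Kcng3 (2.54 and 1.54 times) and Kcnn1 (2.04 and 1.40 times). The set held 5 of 9 modifier and 4 of 9 calcium-activated genes.

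Genes lowest in replicate 2 included the M-current gene Kcnq3. It was at 23.8, 6.50 and 18.3 FPKM in the Vehicle and 13.6, 6.90 and 18.9 FPKM in the Ribose libraries. Kcnh5 was at 8.44, 3.24 and 10.0 FPKM and 9.49, 4.36 and 11.4 FPKM, and Kcng4 at 9.44, 3.39 and 11.6 FPKM and 7.06, 3.57 and 9.37 FPKM. Kcna1, Kcna2, Kcnc1, Kcnh2 and Kcns1 were among the abundant genes of this set, which held 12 of 25 voltage-gated pore genes and 5 of 11 inward rectifiers.

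Neuron-type markers in the same libraries went with this split. The non-peptidergic nociceptor score, the mean of 8 markers centred on the 6 libraries in log2 units, was 1.13 in Vehicle replicate 2 and 0.55 in Ribose replicate 2, against -0.63 to -0.19 in the other 4 libraries. The large-diameter score over 7 markers was -0.76 and -0.35, against 0.03 to 0.44. The satellite glial score was -0.34 and -1.37, against 0.12 to 0.82. The pan-neuronal score differed little, between -0.09 and 0.11. The peptidergic score over 4 markers was 0.25 and 0.35, against -0.37 to -0.01 in the others. Blood cell scores of the 2 replicates went apart from each other: the neutrophil score was 1.38 in Vehicle replicate 2 and -1.33 in Ribose replicate 2 (others -0.68 to 0.77), and the red cell score 0.97 and -2.07 (others -0.39 to 0.96). How much of the potassium channel pattern goes with any of these scores was not tested. With Vehicle replicate 2 and Ribose replicate 2 both left out, 0 of 71 genes passed and 5 (7.04%, beside 6.95% of all genes) had an unadjusted p under 0.05.

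**Figure D5:**
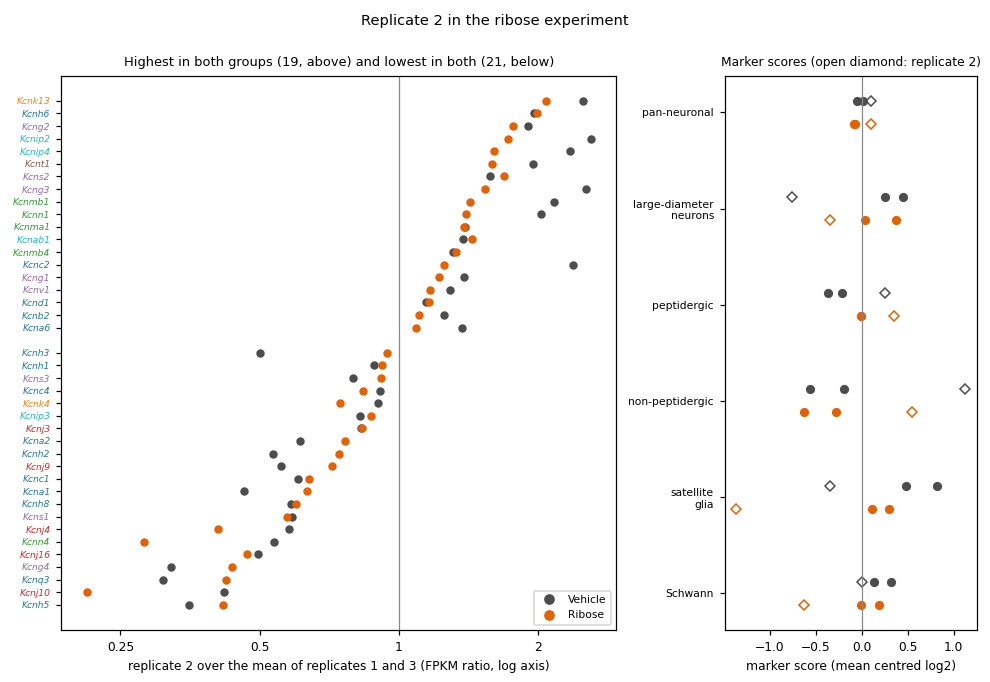
Left, FPKM of replicate 2 divided by the mean of replicates 1 and 3 (log axis) in the Vehicle (dark) and Ribose (orange) group, for 19 genes highest and 21 lowest in replicate 2 of both groups, chosen by these values. Right, marker scores of the 6 libraries with replicate 2 as open diamonds; in replicate 2 the non-peptidergic score lies above, and the large-diameter score below, those of the other libraries.

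The promoters of 4 of these genes are shown because they stood on opposite sides of that split, Kcnip2 and Kcnk13 higher and Kcnh5 and Kcng4 lower in replicate 2, and those of Kcnj9 and Kcnj10 because the 2 genes start close to each other on opposite strands. They are the 250 bases before the RefSeq start (GRCm38.p6), 5′ to 3′ on the gene's strand, with CpG dinucleotides in capitals. They were chosen after the values were seen. Kcnip2 is at chr19:45816064-45816313 (minus), Kcnk13 at chr12:99964249-99964498 (plus), Kcnh5 at chr12:75177333-75177582 (minus), Kcng4 at chr8:119635681-119635930 (minus), Kcnj9 at chr1:172329323-172329572 (minus) and Kcnj10 at chr1:172340960-172341209 (plus).
Kcnip2: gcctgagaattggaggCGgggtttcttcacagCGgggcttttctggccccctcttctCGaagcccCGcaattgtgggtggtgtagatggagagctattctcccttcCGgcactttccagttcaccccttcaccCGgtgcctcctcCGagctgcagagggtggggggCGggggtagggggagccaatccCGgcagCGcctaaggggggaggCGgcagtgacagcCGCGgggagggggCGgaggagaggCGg
Kcnk13: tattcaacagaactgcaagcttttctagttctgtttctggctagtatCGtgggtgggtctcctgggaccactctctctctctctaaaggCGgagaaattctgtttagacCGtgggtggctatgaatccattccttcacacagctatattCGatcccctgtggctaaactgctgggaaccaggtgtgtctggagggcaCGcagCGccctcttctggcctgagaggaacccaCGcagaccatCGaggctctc
Kcnh5: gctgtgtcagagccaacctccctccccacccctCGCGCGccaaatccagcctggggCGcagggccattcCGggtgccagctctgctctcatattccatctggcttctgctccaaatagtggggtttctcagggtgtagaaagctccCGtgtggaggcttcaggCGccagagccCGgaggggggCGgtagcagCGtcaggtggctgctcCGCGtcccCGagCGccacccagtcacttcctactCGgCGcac
Kcng4: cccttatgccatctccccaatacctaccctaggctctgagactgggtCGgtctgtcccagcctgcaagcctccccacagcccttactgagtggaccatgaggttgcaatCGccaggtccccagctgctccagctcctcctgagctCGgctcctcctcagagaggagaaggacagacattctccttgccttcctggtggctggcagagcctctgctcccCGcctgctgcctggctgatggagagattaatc
Kcnj9: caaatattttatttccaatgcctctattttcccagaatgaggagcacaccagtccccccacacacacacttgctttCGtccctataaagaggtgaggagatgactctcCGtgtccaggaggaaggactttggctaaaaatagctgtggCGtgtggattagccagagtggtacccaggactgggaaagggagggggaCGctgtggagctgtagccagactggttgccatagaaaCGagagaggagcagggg
Kcnj10: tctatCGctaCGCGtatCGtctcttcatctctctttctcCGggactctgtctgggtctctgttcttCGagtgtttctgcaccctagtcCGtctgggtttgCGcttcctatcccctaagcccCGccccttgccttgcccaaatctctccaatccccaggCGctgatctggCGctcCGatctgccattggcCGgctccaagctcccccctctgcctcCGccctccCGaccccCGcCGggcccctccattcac
The windows held 15, 8, 16, 4, 5 and 17 CpG in that order. RefSeq windows were found for 53 of the 72 genes (76 starts), with a median of 8 CpG beside 6 over all 32851 promoters. Over the same 250 bases and on both strands, the GC box GGGCGG was in 46.1% of the member windows and 32.7% of all, TATAAA in 2.63% and 12.4%, the Runx core TGTGGT in 7.89% and 14.0%, and the cAMP response element TGACGTCA in 0% and 1.55%. The GC box was in 8 of 19 windows, from 12 genes, of the set highest in replicate 2. It was in 15 of 24 windows, from 18 genes, of the set lowest. Genes with several starts gave several windows, and not every gene of the sets had one. These matches are a description of letters, and overlapping motifs were counted separately.

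The genes that split with replicate 2 in the ribose experiment were also looked up in the AAV experiment, which shares no library with it. Of the 20 measured there that were lowest in replicate 2, 16 had an AAV-TKT minus AAV-GFP change above 0, with a median of 0.14, beside 56.9% above 0 and a median of 0.03 over the 2418 genes of all kinds with that pattern. Of the 18 that were highest in replicate 2, 14 had a change below 0, with a median of -0.07, beside 48.4% below 0 and a median of 0.00 over 2900 genes. Of the 12 genes above in every AAV-TKT library, 6 belonged to the set lowest in replicate 2, among them Kcna1, Kcng4, Kcnh5, Kcnip3 and Kcns1, 0 to the set highest and 6 to the remaining 22 genes. That is 6 of 20 (30.0%) of the lowest set, beside 16.2% of all genes with that pattern, and 0 of 18 of the highest set, beside 9.31%. Of the 3 genes below in every AAV-TKT library, Kcnj4 was in the lowest set, Kcnip2 in the highest and Kcnj2 in neither, beside 6.12% and 7.86% of all genes with the lowest and the highest pattern. These counts use the values as deposited. With equal totals per library, 0 of the 21 voltage-gated pore genes lay above in every AAV-TKT library, against 4 as deposited. Kcna1 and Kcnh5 were thus no longer apart, and the sets were not recounted under that scaling. The sets were chosen from the ribose values and this is a description with no test.

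Whether the 2 treatments differed in effect was tested over the 12853 genes of both tables. Of the 59 shared members 0 passed in limma, where 0.00778% of all genes did, and the lowest adjusted p was 0.755. At an unadjusted p under 0.05 there were 0, beside 6.85% of all genes, and that count was 7 without Vehicle replicate 2 and 3 without Ribose replicate 2, beside 10.9% and 10.3% of all genes. It was 1 without Vehicle replicate 1 or Ribose replicate 1, beside 6.66% and 8.25%. Kcnj11 had the lowest p, with 0.22 in the AAV and 1.05 in the ribose experiment, a difference of -0.83 (95% interval -1.79 to 0.12). Kcnd1 followed at 0.06 and -0.18, a difference of 0.23 (95% interval -0.03 to 0.50, adjusted p = 0.755). Kcnj4 was at -0.38 and 0.26, and Kcnab2 at 0.20 and -0.02, with intervals of the difference of -1.48 to 0.19 and -0.06 to 0.51. The Kcnj4 difference was -0.64, and -0.37 without Ribose replicate 1. Across the 59 genes the 2 sets of fitted changes had a Spearman correlation of 0.179 and a Pearson correlation of 0.254, given as a description over genes. They were both above 0 for 17 genes, both below 0 for 15 and opposite for 26, leaving out Kcns3, whose ribose change was 0 after rounding.

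Partners outside the Kcn symbols were read from a list of 46 genes for channel scaffolds, accessory proteins, HCN channels and potassium transporters, of which 40 were measured in each table. With AAV-TKT, 0 of 40 passed and 8 (20.0%, beside 10.6% of all genes) had an unadjusted p under 0.05. The lowest p belonged to Lgi3, which interacts with Kv1 complexes, at 57.4 ± 2.96 FPKM against 69.1 ± 2.37 FPKM (SD, n = 3; 0.27, adjusted p = 0.378). Next came Fxyd7, a modulator of the sodium pump (0.40), the paranodal protein gene Cntnap1 (0.25) and Dlg4, which encodes the scaffold PSD-95 (0.22), each with an adjusted p of 0.378. All 4 were higher in every AAV-TKT library, as were 10 of the 40 in all (25.0%, beside 11.3% of all genes), while 4 (10.0%, beside 7.2%) were lower in every library, among them the Kv4 partner Dpp10 (-0.29) and the sodium pump subunit Fxyd2 (-0.37). With equal totals per library these counts were 6 and 5 of 40, beside 6.4% and 11.2% of all genes. With quantile normalization they were 7 and 3, beside 11.1% and 6.31%.

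With ribose, 0 of the 40 passed, 0 had an unadjusted p under 0.05 (beside 4.79% of all genes) and 0 lay apart above or below (beside 4.28% and 5.35%), with 16 above 0 and 24 below. Slc12a2, which encodes a sodium, potassium and chloride cotransporter, had the lowest p, at 34.3 ± 2.88 FPKM with Vehicle and 26.8 ± 5.60 FPKM with Ribose (SD, n = 3; adjusted p = 0.9998). The glial sodium pump gene Atp1b2 was at -0.65, beside the Kcnj10 value of -0.90 and the satellite glial markers given above. The hyperpolarization-activated channel genes Hcn2, Hcn3 and Hcn4 differed by 0.03, 0.27 and 0.18, and their groups overlapped.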

How the data were processed

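The authors deposited FPKM values, 1 table per experiment, per the file headers, made from polyadenylated RNA with a directional kit per the labels' protocols. Per the submitters' processing notes, bcl2fastq 2.20, FastQC, Trim Galore and GRCm38 were used. No source used here names the aligner, the counter or the scaling. In the AAV experiment 13178 genes were listed, none with a mean under 1 FPKM, and in the ribose experiment 21650. Ribose-table columns headed as controls were taken as the Vehicle group. Ensembl identifiers were matched to GENCODE M21 symbols for 13170 and 21612 genes, and 23 of 72 members have exons overlapping another gene, mostly antisense. Whether counting used strand is not stated.

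Groups were compared in limma 3.58.1 (R 4.3.3) on log2(FPKM + 1) with an intensity trend, fitted to all genes whose mean reached 1 FPKM, with Benjamini-Hochberg adjustment over all of them at a threshold of 0.05. A pseudocount of 1 understates changes of low genes. The difference of effects used all 12 libraries and 1 estimate of spread per gene. The fit was also run on simulated data, with the means and spreads of each experiment and 200 genes changed 2-fold. At the threshold it recovered 166 (83.0%) for the AAV experiment and 75 (37.5%) for the ribose experiment. False calls numbered 14 and 4. The members, lists and naming rule were chosen with earlier results of these data known. Genes were named by smallest p per direction (8 per table, 4 per sign for the difference), highest level per subfamily, role and short lists by current type, and further genes after their values were seen. Marker scores are means of log2(FPKM + 1) centred over the 6 libraries of a table. Alternatives were other pseudocounts, filters and scalings, library weights, a replicate block and omission of each library. Some genes that enter the fits and counts are not reported here by name or in the plots.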

Additional observations from a re-analysis of the deposited data

How the results depend on the processing

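No potassium channel gene passed the adjusted threshold in any of the 3 tests under any of the alternatives run, omission of each library included. The median change with AAV-TKT (0.03 in the report) was -0.0152 with equal totals, 0.0619 among genes of at least 5 FPKM, 0.0105 with median-of-ratios scaling, and 0.0214 to 0.0579 with each library left out in turn. With ribose it was -0.00111 among genes of at least 5 FPKM and 0.0329 to 0.0953 with each library left out. Equal totals gave 7 genes above and 6 below in every AAV-TKT library, beside 6.4% and 11.2% of all genes. Quantile normalization gave 5 below, beside 6.31% of all genes. In the ribose experiment it gave 1 of 71 genes below in every Ribose library, beside 756 of all 13804 genes. The ribose changes of Kcna6 (-0.209 to 0.0444), Kcnc4 (-0.136 to 0.00138) and Kcnq5 (-0.316 to 0.00711) crossed 0 when a library was left out. With Vehicle and Ribose replicate 2 left out together, an alternative chosen after seeing the data, Kcna6 was at 0.00367 and Kcnj14 at -0.0526. The cause was not tested. Of 654 alternative values for 40 named changes, 648 kept their direction, and none passed the threshold, as in the main fits. The 40 were picked by smallest p in these data, and size was not counted. The ribose change of Kcnj10, for one, ran from -1.28 to -0.279 with each library left out.

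With the replicate number as a block, 0 genes passed in the AAV, ribose and difference tests, and 11, 7 and 5 had an unadjusted p under 0.05, beside 12.1%, 7.19% and 9.9% of all genes. Deviations of same-numbered libraries had correlations of 0.0326, 0.0707 and -0.0144 in the AAV experiment and 0.0418, 0.357 and 0.16 in the ribose experiment. The labels state no pairing, so the numbers were not taken to pair samples. In the ribose experiment 2 of 3 pairs were above 0.1. Vehicle replicate 2, at 0.357 with Ribose replicate 2, was at -0.111 and -0.26 with Ribose replicates 1 and 3. Not every library correlated best with its own number. Read depth is unknown, and missing the threshold does not show that a gene stayed the same.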
